A study of Mus musculus with 5 samples.

Results

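The genes described here were Mki67 and 9 genes that drive cells into and through mitosis: the cyclins Ccna2, Ccnb1 and Ccnb2, the kinases Cdk1, Plk1 and Aurka, the spindle motor Kif11, the topoisomerase Top2a and Cdc20, an activator of the anaphase-promoting complex. They were chosen by symbol from the deposited table of read counts, which holds 22869 gene symbols. Each of the 10 had 1 transcript row, so no choice between rows was needed, and all 10 passed the filter on low counts.

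RNA was sequenced from cells laser-captured in the intervillus zone of the proximal jejunum, from paraffin sections of mice at postnatal day 0. The mutant group was 2 libraries, numbered 4 and 6, from Dnmt1 L/L; VillinCre mice, with 2 floxed Dnmt1 alleles and a Cre driven by the villin promoter. Villin is made in gut epithelium, so other captured cells would keep Dnmt1. The control group was 3 libraries, numbered 1, 2 and 3, from Dnmt1 L/+ littermates, whose genotype label names 1 floxed allele and no Cre. Mutant areas were picked because a neighbouring section was negative for Ki67, the protein of Mki67, and control areas because it was positive. The effect of losing Dnmt1 cannot be told apart from that choice, and no fall of a cell cycle gene below is independent of the choice. The comparison asks how much mitotic transcript Ki67-negative areas kept. The labels do not tie each library to its own mouse, so p-values here reflect the spread among 5 libraries, which may be technical.

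Cells build up the mitotic machinery late in each division cycle. Cyclin A and cyclin B bind the kinase Cdk1 and switch it on, Polo and Aurora kinases act with it to build the spindle, and the anaphase-promoting complex then destroys the cyclins so that the cell can leave mitosis. Ki67 protein coats mitotic chromosomes, and it is widely used as a stain for cells that are cycling. In newborn intestine, division takes place in the intervillus epithelium, from which crypts later form. Many genes of this programme share promoter elements: CCAAT boxes, bound by the factor NF-Y, and the CHR (cell cycle genes homology region), bound by complexes that include the DREAM repressor and the activators B-Myb and FoxM1.

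Promoter windows are shown because genes of this kind are known for these shared elements. All 10 members were lower in both mutants than in any control, as were 21.8% of all genes tested. Any part of the motifs in the falls was not tested. The windows are from RefSeq on GRCm38.p6 (250 bases before to 50 bases after the start site), and 9 of the 10 members matched the table; Ccna2 is named only. The search was for CCAAT, and for TTTGAA or TTCGAA as the CHR, on both strands, and no match of one motif overlapped a match of the other. Capitals mark the matches. Mki67 is shown as the gene of the stained protein, Ccnb2 as the member with the lowest share of its control level left, Aurka as the one with the highest, and Kif11 as the one in which the mutant libraries lay closest together. They lie at chr7:135716330-135716629 (Mki67, minus strand), chr9:70421505-70421804 (Ccnb2, minus), chr2:172370521-172370820 (Aurka, minus) and chr19:37376132-37376431 (Kif11, plus).
Mki67: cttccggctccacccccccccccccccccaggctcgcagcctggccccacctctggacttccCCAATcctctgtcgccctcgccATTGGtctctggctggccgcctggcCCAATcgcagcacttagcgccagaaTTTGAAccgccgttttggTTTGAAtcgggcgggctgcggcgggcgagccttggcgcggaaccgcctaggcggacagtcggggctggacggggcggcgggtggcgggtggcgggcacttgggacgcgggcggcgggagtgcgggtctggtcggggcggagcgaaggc
Ccnb2: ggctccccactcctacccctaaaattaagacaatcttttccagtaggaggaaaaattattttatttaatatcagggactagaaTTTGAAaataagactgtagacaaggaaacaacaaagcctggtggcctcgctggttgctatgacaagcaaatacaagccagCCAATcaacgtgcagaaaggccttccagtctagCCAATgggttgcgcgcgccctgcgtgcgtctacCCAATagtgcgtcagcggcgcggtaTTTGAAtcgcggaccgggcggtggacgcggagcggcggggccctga
Aurka: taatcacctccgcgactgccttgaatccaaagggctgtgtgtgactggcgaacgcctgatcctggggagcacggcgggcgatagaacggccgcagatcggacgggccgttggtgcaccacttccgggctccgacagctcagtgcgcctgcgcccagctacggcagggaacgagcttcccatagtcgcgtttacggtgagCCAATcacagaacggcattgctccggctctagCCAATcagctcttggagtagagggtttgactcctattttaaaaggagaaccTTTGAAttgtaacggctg
Kif11: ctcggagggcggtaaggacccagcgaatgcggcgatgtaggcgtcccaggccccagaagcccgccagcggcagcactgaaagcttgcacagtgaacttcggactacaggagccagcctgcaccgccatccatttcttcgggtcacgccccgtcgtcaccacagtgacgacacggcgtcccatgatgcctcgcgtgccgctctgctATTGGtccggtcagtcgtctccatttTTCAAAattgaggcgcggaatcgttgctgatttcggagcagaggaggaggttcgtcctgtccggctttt

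The Mki67 window held 3 CCAAT boxes and 2 CHR matches, and the Ccnb2 window also held 3 and 2. Aurka had 2 CCAAT boxes and 1 CHR match, which lay downstream of the start site. Kif11 had 1 of each, both read on the opposite strand as ATTGG and TTCAAA. Over the members, 9 of 9 windows had at least 1 CCAAT box and 8 of 9 (88.9%) had both motifs, the exception being Ccnb1, where the letters of the CHR were not found in this window. Among all 32851 RefSeq windows, 37.4% had a CCAAT box, 19.2% a CHR match and 7.52% both; among windows of genes tested here 5.67% had both. A match is a run of letters, not a measured binding site.

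**Figure D1:**
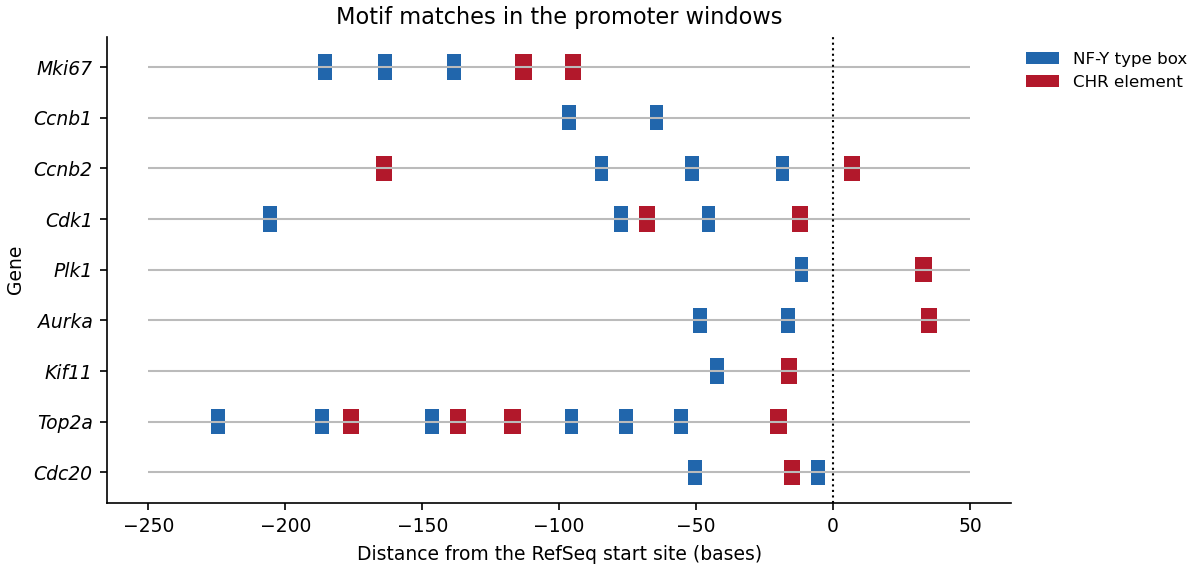
Positions of motif matches in the 9 promoter windows, as distance in bases from the RefSeq start site (dotted line); blue bars are CCAAT (NF-Y type) boxes and red bars CHR matches. Top2a held the most matches (6 and 4), and Ccnb1 had 2 CCAAT boxes and no CHR match.

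Mutants 4 and 6 held 8730268 and 10260760 reads and controls 1, 2 and 3 held 13356901, 13101286 and 10530200, counted with 1 row per gene. Every member had at least 186 counts in each library. Dnmt1 itself had 427 and 525 counts in the mutants, against 2240, 2163 and 1351 in the controls (log2 fold change -1.56 ± 0.16 SE; edgeR adjusted p = 3.74e-05). The groups also differed in sex-linked transcripts: Xist, which silences an X chromosome in female cells, had 10179 and 8277 counts in the mutants and 42 to 72 in the controls, and 4 Y-linked genes together had 3 or 4 counts in the mutants and 2710 to 3160 in the controls. The part of sex in the results below cannot be told apart from that of genotype.

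All 10 members were lower in both mutants than in any control, and 8 of the 10 fell by the test; Cdk1 and Aurka did not pass it. In the same fit 4.17% of the 14572 genes tested were called lower, and in 21.8% both mutants lay below all controls. Levels were compared as CPM (each count relative to its library size, with TMM factors), and the share kept is the fitted mutant level as a percent of the control level with its 95% interval. The 10 shares ran from 46.1% to 67.3%, with a median log2 fold change of -0.84 where the median over all genes was -0.01. Ranked from the most negative log2 fold change among the 14572 genes, the members stood between place 336 and place 1408. Fewer cycling cells and less of each RNA per cell cannot be told apart in such bulk samples. Summed markers of villus enterocytes and of mesenchyme were also higher in both mutants than in any control, with values at the end; their part in these falls was not tested.

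**Figure D2:**
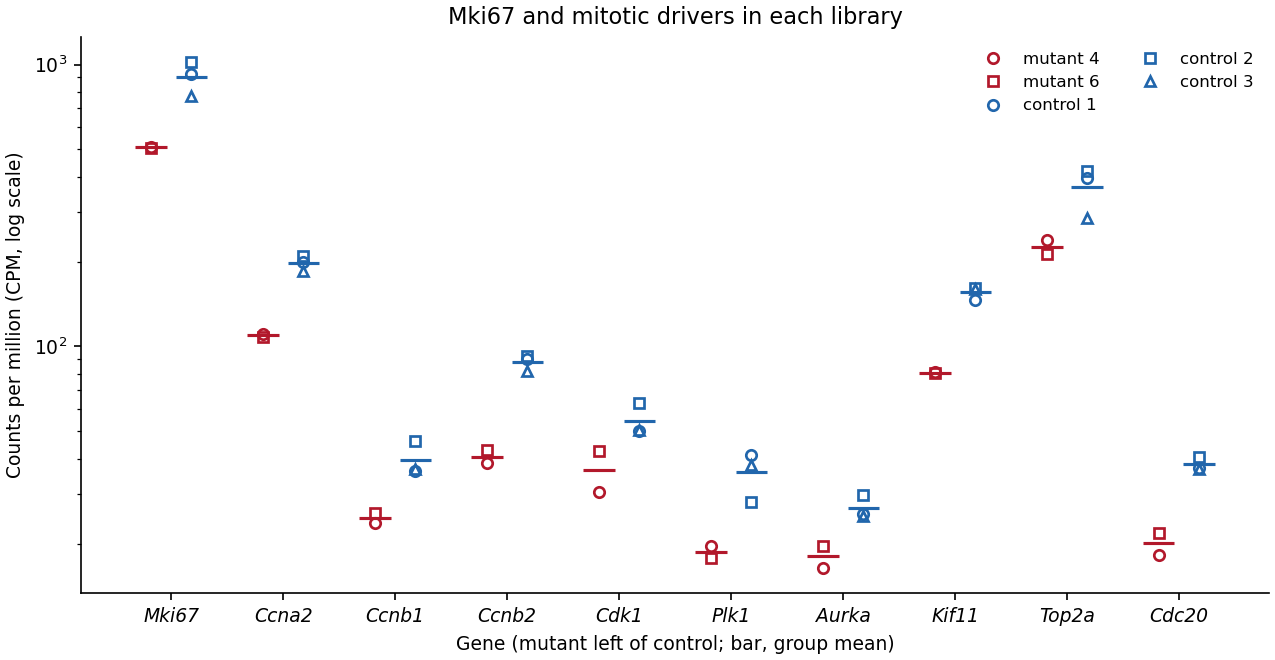
CPM of each member on a log axis, with mutant libraries (red) to the left of control libraries (blue); symbols are single libraries and bars group means. In every gene both mutants sit below all 3 controls, with the narrowest gaps in Cdk1 and Top2a.

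Mki67 was far from absent in areas taken as negative for its protein. Its level was 510 and 506 CPM in mutants 4 and 6, against 926, 1021 and 773 CPM in controls 1, 2 and 3. The mutants lay within 1% of each other while control 3 was the lowest control, and the groups did not overlap. The share kept was 56.0% (95% interval 44.9% to 69.9%; log2 fold change -0.84 ± 0.15 SE; edgeR adjusted p = 0.00284). Leaving out any 1 library gave shares between 52.2% and 60.4%, and the fall passed each time. On the deposited FPKM the Mki67 fall did not pass in limma, with an adjusted p of 0.189 as log2(FPKM + 1) and 0.135 as log2(FPKM + 0.1). Among rows with a mean of at least 1 FPKM it was 0.0537. Areas had been picked on the Ki67 protein, so the share describes how much transcript stayed where the stain was absent.

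All 3 cyclins fell; differences in extent between them were not tested. Ccna2, which encodes cyclin A2 and acts from S phase into early mitosis, was 111 and 108 CPM in mutants 4 and 6, against 199, 209 and 186 CPM in controls 1, 2 and 3. It kept 55.3% (45.6% to 67.1%; -0.85 ± 0.13; edgeR adjusted p = 0.000913). Ccnb1, the main mitotic cyclin, was 23.6 and 25.7 CPM in mutants, against 36.2, 46.2 and 36.6 CPM in controls, with control 2 well above the other two. It kept 62.1% (48.3% to 79.7%; -0.69 ± 0.17; edgeR adjusted p = 0.0185), and the call was lost without mutant 4 (0.161) or mutant 6 (0.0826). Ccnb2, the second B-type cyclin, was 38.5 and 42.8 CPM in mutants, against 89.9, 92.5 and 82.2 CPM in controls. Its lowest control was 1.92 times its highest mutant, the widest gap of the 10, and it kept 46.1% (37.5% to 56.7%; -1.12 ± 0.14; edgeR adjusted p = 0.000198). RefSeq lists a pseudogene of Ccnb1 and one of Ccnb2, and how reads that fit both a gene and its copy were counted is not stated, so these levels carry that uncertainty.

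Cdk1, the kinase that both cyclin types activate, did not pass. It was 30.6 and 42.6 CPM in mutants 4 and 6, against 50.3, 62.8 and 50.4 CPM in controls 1, 2 and 3. Mutant 6 was 1.39 times mutant 4, the largest difference between the mutants among the members, and the lowest control stood only 1.18 times above mutant 6. The share kept was 67.2% (51.8% to 87.3%; -0.57 ± 0.18; edgeR adjusted p = 0.0547). It was 55.9% without mutant 6 (adjusted p = 0.0432) and 78.1% without mutant 4 (0.397), and the fall also passed without control 3 (0.0425), with DESeq2 (0.0354), with the edgeR exact test (0.0272) and with no filter on low counts (0.00759).

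Of the other mitotic kinases 1 passed and 1 did not. Plk1, the Polo kinase that acts in spindle assembly and mitotic entry, was 19.5 and 17.8 CPM in mutants 4 and 6, against 41.2, 28.0 and 38.1 CPM in controls 1, 2 and 3. Here control 2, the highest control for 9 of the 10 members, was the lowest. Plk1 kept 52.2% (39.1% to 69.6%; -0.94 ± 0.19; edgeR adjusted p = 0.00728), and without mutant 6 the adjusted p was 0.0669. Aurka, the Aurora kinase of centrosomes and spindle poles, was 16.4 and 19.6 CPM in mutants, against 25.5, 29.7 and 25.1 CPM in controls. It kept 67.3% (51.5% to 88.1%; -0.57 ± 0.18; edgeR adjusted p = 0.061), the highest share of the 10. It passed with no filter (0.0383) and with the edgeR exact test (0.0404).

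The remaining 3 members, Kif11, Top2a and Cdc20, fell. Kif11, the motor that pushes spindle poles apart, was 80.9 and 80.7 CPM in mutants 4 and 6, against 146, 161 and 160 CPM in controls 1, 2 and 3. The mutants were nearly equal and every control was well above them, and Kif11 kept 51.9% (42.8% to 62.9%; -0.95 ± 0.13; edgeR adjusted p = 0.000421). Top2a, the topoisomerase that untangles sister chromosomes, was 239 and 213 CPM in mutants, against 395, 420 and 285 CPM in controls. Control 3 was far below the other controls and only 1.19 times mutant 4. Top2a kept 61.6% (48.0% to 79.1%; -0.70 ± 0.17; edgeR adjusted p = 0.0171), and the call was lost without control 1 (0.0748), mutant 4 (0.0816) or mutant 6 (0.151). Cdc20, which turns on the anaphase-promoting complex, was 18.2 and 21.8 CPM in mutants, against 37.1, 40.6 and 36.8 CPM in controls. It kept 52.5% (41.1% to 67.1%; -0.93 ± 0.16; edgeR adjusted p = 0.00279), with an adjusted p of 0.0553 without mutant 4.

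Summed over the 10 members, the mutants held 1088 and 1077 CPM, against 1946, 2111 and 1672 CPM in the controls. Control 3 had the lowest control value in 6 members and control 2 the highest in 9, while mutants 4 and 6 each had the lower value in 5. Counts of genes called lower over the whole table changed with the library left out and on FPKM, and are given with the processing below. The count of called members was 7, 8 and 9 without control 1, 2 and 3, and 5 and 6 without mutant 4 and mutant 6. On the deposited FPKM, as log2(FPKM + 1) in limma, only Ccnb2 and Kif11 passed, and these 2 passed in all 17 alternatives tried.

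**Figure D3:**
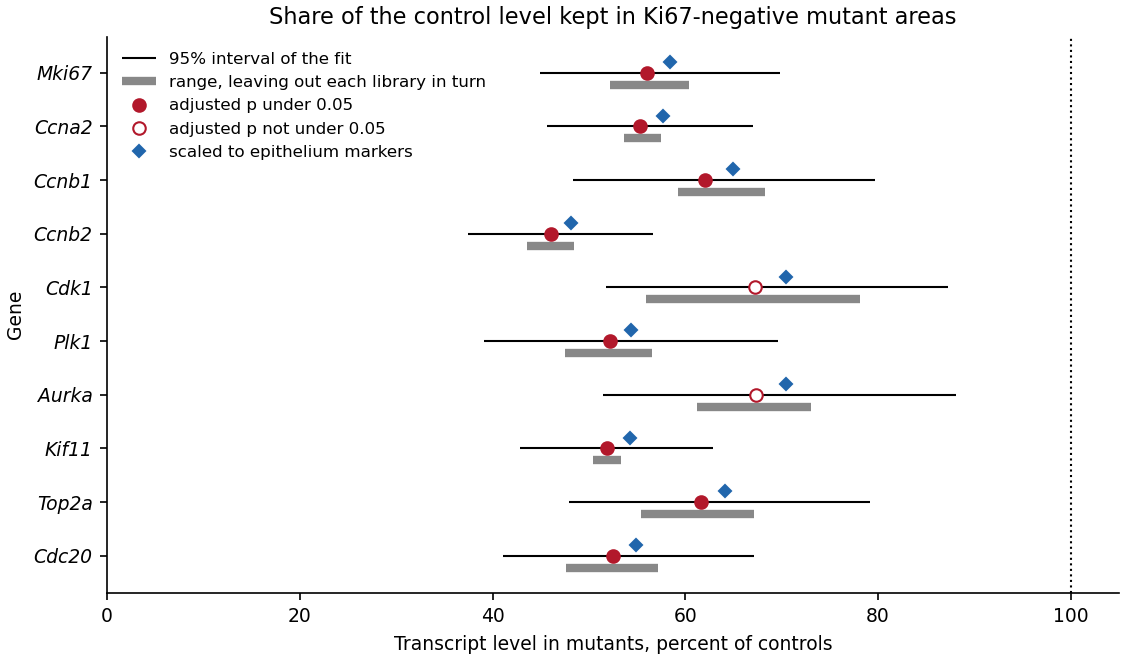
Level of each member in mutants as a percent of controls, with the 95% interval of the edgeR fit (black line), the range when each library is left out in turn (grey bar) and the value after scaling libraries to epithelium markers (blue diamond). Filled red points had an adjusted p under 0.05; all 10 intervals lie below 100%, and the shares run from 46.1% (Ccnb2) to 67.3% (Aurka).

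Whether a member fell more or less than Mki67 was tested by scaling each library to its Mki67 count. None of the other 9 passed this test in edgeR, with adjusted p between 0.222 and 0.901 (0 had an unadjusted p under 0.05), where 68.1% of all genes passed under this scaling. With any 1 library left out the adjusted p ran from 0.139 to 0.982 and the count was again 0. Ccnb2 was the farthest below, at -0.29 ± 0.22 (95% interval -0.73 to 0.15) as log2 fold change relative to Mki67. Farthest above were Cdk1, at 0.26 ± 0.22 (-0.20 to 0.72), and Aurka, at 0.26 ± 0.23 (-0.22 to 0.74). These intervals allow differences of over 0.7 log2 units, so equal falls were not shown.

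Per transcript length, the deposited FPKM gave the order of the members. In the mutants it ran Mki67, Top2a, Ccna2, Ccnb2, Kif11, Cdk1, Cdc20, Aurka, Ccnb1, Plk1, with 44.0 ± 0.823 FPKM for Mki67 and 8.30 ± 0.141 FPKM for Plk1 (SD, n = 2). In the controls it ran Mki67, Ccna2, Top2a, Ccnb2, Kif11, Cdc20, Cdk1, Plk1, Aurka, Ccnb1, with 81.1 ± 17.0 FPKM for Mki67 and 13.6 ± 3.26 FPKM for Ccnb1 (SD, n = 3). The first 4 genes of the control order overlapped their neighbours between libraries, as did the last 5, while Kif11 (27.1 to 30.7 FPKM) stood apart from both. By group means Mki67, Top2a and Ccna2 were the most abundant of the 10 per length in both groups. In control 3, though, Ccnb2 (48.1 FPKM) stood above Top2a (45.8 FPKM). Between the groups, places changed only among genes whose control ranges overlapped. On this scale the groups overlapped for Cdk1 alone, at 10.2 and 17.4 FPKM in mutants 4 and 6, against 19.0, 20.2 and 15.1 FPKM in controls 1, 2 and 3.

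The partners of these genes, taken from lists drawn up for their roles, were read in the same fit. Over all genes tested there, 4.17% were called lower. Of 10 partners of the Aurora and Polo kinases 9 fell and Plk4 did not pass (median log2 fold change -0.75, against -0.01 over all genes). Without control 1 edgeR called 6 of the 10 lower, and without control 2 it called 8. The centrosome kinase Nek2 was 22.8 ± 1.15 CPM in mutants and 51.1 ± 0.817 CPM in controls (-1.16 ± 0.15; edgeR adjusted p = 0.000244). Cdca8 (borealin) and Incenp, both in the chromosomal passenger complex with Aurkb and Birc5, changed by -0.91 ± 0.17 and -0.69 ± 0.14 (adjusted p = 0.00377 and 0.00606), and Incenp did not pass without mutant 4 (0.102). Tpx2, which activates Aurora A, and Bora, through which Aurora A activates Plk1, were also among the 9, as were Hmmr, which binds spindle microtubules, and Cep55, which acts when daughter cells separate. The count of falls was 2 without mutant 4 and 4 without mutant 6.

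Of 16 spindle and cytokinesis motors and scaffolds 13 fell (4.17% over all genes tested) and 3 did not pass, with a median of -0.85. Racgap1, a part of the central spindle complex, was 27.4 ± 1.66 CPM in mutants and 58.4 ± 4.15 CPM in controls (-1.09 ± 0.15; edgeR adjusted p = 0.000431). The kinetochore motor Cenpe changed by -0.96 ± 0.15 (adjusted p = 0.0012) and the spindle kinesin Kif15 by -0.99 ± 0.16 (0.00136). Also called lower were Kif2c, Kif4, Kif14, Kif18b, Kif20b, Kif22, Kif23, Prc1, Ect2 and Anln. Without control 1 edgeR called 9 of the 16 lower, and without control 2 it called 12. The count was 8 without mutant 4 and 6 without mutant 6.

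Of 11 regulators of the Cdk1 switch 3 fell (4.17% over all genes tested), with a median of -0.60. They were Mastl (Greatwall), which holds back the phosphatase that opposes Cdk1, at 11.5 ± 2.67 CPM in mutants and 26.9 ± 1.89 CPM in controls (-1.22 ± 0.20; edgeR adjusted p = 0.00185), Wee1, which inhibits Cdk1 (-0.93 ± 0.18; 0.00599), and cyclin F, Ccnf (-0.66 ± 0.19; 0.0448). Wee1 did not pass without mutant 6 (0.0859), nor Ccnf without control 1 (0.131), control 2 (0.104), mutant 4 (0.137) or mutant 6 (0.239). The activating phosphatases Cdc25a, Cdc25b and Cdc25c had log2 fold changes of -0.30, -0.56 and -0.61 and did not pass (0.215, 0.188 and 0.115). The count was 5 without control 3 or with no filter on low counts, and 1 without mutant 6.

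Of 8 condensin subunits, which compact mitotic chromosomes, 4 fell (median -0.44), where 4.17% of all genes tested fell. They were Ncapd3 (-0.91 ± 0.17; edgeR adjusted p = 0.00356), Smc4 (-0.49 ± 0.13; 0.0318), Ncapd2 (-0.57 ± 0.16; 0.0385) and Smc2. Without mutant 4 edgeR called 0 of them (4 at an unadjusted p under 0.05) and Ncapd3 had 0.0709. The count was 1 without mutant 6, and 2 without control 1, without control 2 or with upper-quartile normalization. Smc4 did not pass without control 2 (0.0579) or mutant 6 (0.171), nor Ncapd2 without control 1 (0.155) or mutant 6 (0.331). In the list of the anaphase-promoting complex 1 of 16 fell (median -0.15), a share near the 4.17% of all genes tested. It was Ube2c, the ubiquitin-conjugating enzyme that serves the complex in mitosis, at 90.3 ± 8.40 CPM in mutants and 172 ± 4.74 CPM in controls (-0.93 ± 0.13; edgeR adjusted p = 0.000554). Fzr1 (Cdh1), the activator that takes over from Cdc20 at mitotic exit and in G1, was 28.8 ± 4.29 CPM in mutants and 27.4 ± 1.95 CPM in controls (0.07 ± 0.17; adjusted p = 0.835).

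Of 21 transcriptional regulators of cell cycle genes 2 fell (median -0.36), where 4.17% of all genes tested fell. The count was 3 without control 2 or with no filter. On the deposited FPKM limma called 0 in each of the 3 settings, with 3 at an unadjusted p under 0.05. Foxm1, an activator of mitotic genes that acts through the CHR, was 32.7 ± 0.713 CPM in mutants and 58.1 ± 3.93 CPM in controls (-0.83 ± 0.14; edgeR adjusted p = 0.00252), and it passed with any 1 library left out. E2f8, a repressing E2F, changed by -0.63 ± 0.14 (0.0111; 0.174 without mutant 4). Mybl2, which encodes B-Myb, was 5.47 ± 0.761 CPM in mutants and 10.1 ± 2.81 CPM in controls and did not pass (-0.88 ± 0.30; 0.0797), but did without control 2 (0.0308).

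**Figure D4:**
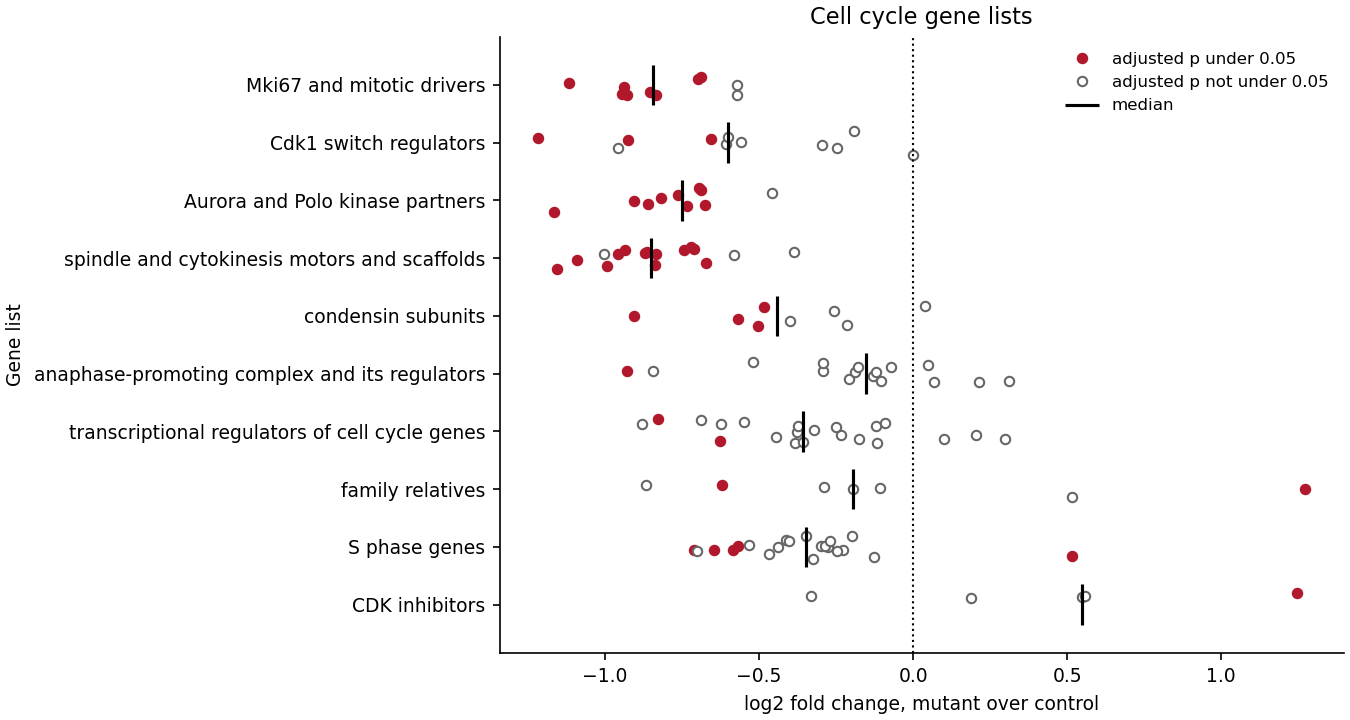
Log2 fold change, mutant over control, of each gene tested in 10 lists; red points had an edgeR adjusted p under 0.05, open points did not, and black bars are list medians. The medians of the mitotic drivers (-0.84), kinase partners (-0.75) and spindle motors (-0.85) lie furthest to the left, and the CDK inhibitors (0.55) lie to the right of 0.

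Of 21 S phase genes, which make DNA precursors or copy DNA ahead of mitosis, 4 fell and 1 rose, with a median of -0.35, where 4.17% of all genes fell and 6.11% rose. The falls were in thymidine kinase Tk1 (-0.71 ± 0.17; edgeR adjusted p = 0.0146), thymidylate synthase Tyms (-0.59 ± 0.14; 0.0153) and the helicase subunits Mcm6 (-0.65 ± 0.16; 0.0203) and Mcm4, and the rise was in the helicase subunit Mcm2 (0.52 ± 0.14; 0.0307). Tk1 did not pass without control 1 (0.0648) or mutant 4 (0.197), Tyms without mutant 4 (0.144) or mutant 6 (0.107), Mcm6 without control 1 (0.0816), mutant 4 (0.0515) or mutant 6 (0.218), and Mcm2 without control 2 (0.051), control 3 (0.0519), mutant 4 (0.0622) or mutant 6 (0.318). The count of falls was 1 without control 1, 8 without control 3 and 1 without mutant 6; without mutant 4 edgeR called 0, with 4 at an unadjusted p under 0.05. Whether S phase and mitotic genes differed in their fall was not tested.

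On the deposited FPKM fewer list genes passed, and so did fewer genes over the whole table. The counts over all genes are given with the processing below. With limma on log2(FPKM + 1) and a mean of at least 1 FPKM, falls were called in 3 kinase partners, 5 spindle genes and 1 gene each of the Cdk1 regulators, condensins, S phase genes and the anaphase-promoting complex. Without that filter limma called 0 of the kinase partners (8 at an unadjusted p under 0.05), 0 spindle genes (13), 0 Cdk1 regulators (5), 0 condensins (3) and 0 S phase genes (5). With a pseudocount of 0.1 it called 1 kinase partner and 1 spindle gene, and 0 Cdk1 regulators (6 unadjusted), 0 condensins (3) and 0 S phase genes (6). With a pseudocount of 1 and a mean of at least 1 FPKM, Foxm1 did not pass (limma adjusted p = 0.0688), while Ube2c (0.00701) and Nek2 (0.0133) did. With a pseudocount of 1 and no such filter Ube2c still passed (0.0473) and Nek2 did not (0.0558). Nor did the rise of Mcm2 pass there (limma adjusted p = 0.240).

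Of 5 CDK inhibitors tested 1 rose, where 6.11% of all genes tested rose. Cdkn1a, which encodes p21 and holds back cyclin-CDK complexes, was 89.9 ± 4.08 CPM in mutants and 38.0 ± 8.29 CPM in controls (1.25 ± 0.17; edgeR adjusted p = 0.000359). It also rose on the deposited FPKM (limma adjusted p = 0.0423). Cdkn2b had 0.55 ± 0.17 and did not pass (0.0509). The count of risen inhibitors was 2 rather than 1 without control 3 and in 7 alternatives on the counts of all 5 libraries (RLE and upper-quartile normalization, no filter, the stricter filter, DESeq2, the edgeR exact test and limma-voom), and 1 on FPKM. Of 7 relatives of the members in the same gene families 1 fell and 1 rose, where 4.17% of all genes tested fell and 6.11% rose. Cdk2, the S phase kinase, fell (-0.62 ± 0.17; edgeR adjusted p = 0.0298). Plk3, a stress-induced Polo kinase, rose to 8.75 ± 2.13 CPM in mutants, against 3.61 ± 0.646 CPM in controls (1.27 ± 0.30; 0.0169). On the deposited FPKM, as log2(FPKM + 1) in limma, neither Cdk2 (adjusted p = 0.258) nor Plk3 (0.344) passed. Cdk2 did not pass without control 1 (0.113), control 2 (0.0562), mutant 4 (0.124) or mutant 6 (0.188), nor Plk3 without control 1 (0.0625) or mutant 4 (0.187). Top2b, the topoisomerase of cells that do not divide as well as those that do, was 157 ± 17.3 CPM in mutants and 192 ± 0.443 CPM in controls (-0.29 ± 0.13; 0.179). The relatives Ccnb3, Plk5 and Aurkc had at most 7 counts in any library and were not tested.

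Patterns over the 5 libraries were compared by the root mean square difference between log2 CPM values, each gene centred on its own mean, among the 10006 genes whose average log2 CPM was 3 or more. Nearest to the mean pattern of the 10 members were Fzd5, a Wnt receptor (123 CPM in mutants and 218 CPM in controls), 4933439F18Rik, the kinetochore protein Cenpf, Prpsap1 and the spindle protein Tacc3, with differences of 0.045 to 0.054. Nearest to Mki67 were Cdca8 (31.8 CPM in mutants and 59.5 CPM in controls), the kinesins Kif22 and Kif20b, the DNA repair glycosylase Neil3 and the spindle pole protein Aspm, with differences of 0.045 to 0.061. Of the members, Ccna2 was nearest to Mki67 (0.076, place 15) and Plk1 farthest (0.290, place 1296).

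Summed markers of other cell types differed between the groups. For the counts of called markers below, 4.17% of all genes tested fell and 6.11% rose. The 11 epithelium markers summed to 4143 and 4303 CPM at the lowest and highest in mutants and 4255 and 4531 CPM in controls, with 1 fall (Cdx2) and 1 rise (Krt18). Of 12 mesenchyme and smooth muscle markers 7 rose, and their sum was 1857 to 1995 CPM in mutants and 1214 to 1329 CPM in controls. Sums were also higher in mutants for immune cells (263 to 285 CPM, against 112 to 168 CPM in controls; 1 of 8 rose, and Cd79a was at 0 in both mutants and 2 controls) and for enteric neurons and glia (54.4 to 57.1 CPM, against 21.9 to 32.7 CPM; 2 of 5 rose). Endothelial markers summed to 193 to 213 CPM in mutants and 151 to 183 CPM in controls, with 0 of 8 called by edgeR, and erythroid markers to 36.0 to 36.3 CPM in mutants and 29.2 to 35.0 CPM in controls, with 1 of 3 (Alas2) lower. Villus enterocyte markers summed to 42190 to 43789 CPM in mutants and 20508 to 33328 CPM in controls, and 6 of 10 rose. Apart from Cd79a no marker was at 0 in any library. Scaled to the summed epithelium markers, the members kept from 48.2% (Ccnb2) to 70.4% (Cdk1 and Aurka), with Mki67 at 58.4%, and 8 again passed. The part of dividing cells outside the epithelium in the transcript that was kept was not tested.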

How the data were processed

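Of the tables the authors deposited, one holds raw counts of reads for 28644 RefSeq transcripts and the other FPKM values, scaled to length and depth, for the same transcripts. The submitters' processing notes name mm9 and edgeR; the aligner, the counter and their versions were not given in the sources used here. Amplified cDNA was read as single 100 bp reads, per the labels' protocols. Every sample column was matched to its sample.

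Counts of all rows were fitted in R 4.3.3 with edgeR 4.0.16 (filterByExpr, TMM, quasi-likelihood F-test, no covariate), which left 3 residual degrees of freedom, with Benjamini-Hochberg adjustment over the 19353 rows tested. A gene, read at its row with the highest mean count, was called under 0.05. Log2 fold changes compare mutant with control, and the SE is their size over the root of the F statistic. Library sizes sum all rows, which repeat reads between transcripts of a gene. Intervals are 95% from the t distribution of the fit. DESeq2 1.42.0, the edgeR exact test, limma 3.58.1 (voom on counts, trend on FPKM), other filters, scalings and left-out libraries were alternatives. The fit was checked on simulated counts.

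The members and the lists were chosen with earlier results of these data known. The lists held 193 entries, of which 1 was matched by an older symbol and Cdc20b was not analysed here. Named with values were all members, the 3 called genes of each list with the smallest adjusted p, and Foxm1, Mybl2, Cdkn1a, Top2b, Fzr1 and Dnmt1; Cdc25a, Cdc25b, Cdc25c and Cdkn2b, given with values, were chosen after their values were seen. Other called list genes are named only.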

Additional observations from a re-analysis of the deposited data

How the results depend on the processing

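All 10 members had a negative log2 fold change under each of 17 alternatives, with shares kept between 43.6% (Ccnb2) and 78.1% (Cdk1). Of the 10, 8 passed with RLE or upper-quartile normalization, the stricter filter, limma-voom or scaling to epithelium markers, 9 with DESeq2 and 10 with the edgeR exact test or no filter. On FPKM 2, 2 and 4 passed (pseudocount 1, pseudocount 0.1, and mean of at least 1), while genes lower over the whole table numbered 13, 36 and 131 and genes higher 97, 155 and 258, against 608 and 891 on counts; the cause was not tested. With no filter 935 genes were lower. Leaving out 1 library gave 5 to 9 members, 170 to 645 genes lower and 408 to 1057 higher. Without either mutant, the lone mutant was assumed to vary like the controls. No paired analysis was possible because the mutant and control libraries share no replicate number. The lowest-mean row per gene is the same row for every member. Whether depth or the number of libraries limits these results was not tested; every member had at least 186 counts in each library.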

Other observations

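The 2 deposited tables differed for single members within the mutant group. Between the mutants, Cdk1 in mutant 6 was 1.39 times its value in mutant 4 on CPM and 1.70 times on FPKM. For Aurka the same ratio was 1.19 on CPM and 0.999 on FPKM, and for Cdc20 it was 1.20 and 1.00. The Cdk1 share kept, from group means, was 67.1% on CPM and 76.3% on FPKM, while that of Mki67 was 56.0% and 54.3%. The cause was not tested.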
